A study of Homo sapiens with 36 samples.

Results

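The 9 genes described here encode 7 zinc-dependent histone deacetylases outside class IIa, namely HDAC1, HDAC2, HDAC3 and HDAC8 (class I), HDAC6 and HDAC10 (class IIb) and HDAC11 (class IV), and 2 subunits of the nuclear receptor corepressor complex, NCOR1 and TBL1XR1. They were chosen by name and not by a rule on measured values, but with earlier results of these data known. All 9 were among the 62757 genes counted. Of the 9, 8 passed the filter on low counts and were tested with 12356 genes in all, and HDAC10 did not pass.

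Polyadenylated RNA was sequenced from HCT-116, a human colorectal carcinoma line, either wild type (WT) or FBXW7-/- (KO, a knockout line from a supplier). FBXW7 is the substrate-recognition subunit of a ubiquitin ligase. For 48 h, KO cells carried either a control esiRNA pool (esiCT), a pool targeting HDAC4 (esiHDAC4), or esiCT plus #11, a PROTAC that degrades class IIa HDACs. Each was left untreated (UNT) or exposed to 50 µM oxaliplatin (OXPT), a platinum drug that crosslinks DNA, during the final 24 h. WT cells were likewise untreated or exposed to OXPT. Each of these 8 groups had 3 libraries. The labels disagree on the dose of #11, with 1 µM in the treatment entry and 10 µM in the description, and on the esiRNA of the WT libraries, with siCT in the title and esiHDAC4 in the treatment entry, so WT stands here for either. A further 12 WT libraries, titled WT PROTAC11 (#11) or WT siHDAC4, entered no comparison. Their title and treatment entries give opposite OXPT states. Nothing in the labels says that the 3 libraries of a group came from separate cultures, so the p-values measure the spread between these libraries, which may be technical.

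Class I deacetylases remove acetyl groups from histone lysines, mostly as catalytic subunits of large complexes. HDAC1 and HDAC2 sit in the SIN3, NuRD and CoREST complexes, whereas HDAC3 works in complexes built on NCOR1, with TBL1XR1 or TBL1X as a further subunit. Class IIa enzymes such as HDAC4 have little deacetylase activity of their own and are known to bind the HDAC3 corepressor complex. HDAC6 is a mainly cytoplasmic tubulin deacetylase, HDAC10 deacetylates polyamines, and HDAC11, the sole class IV member, removes long fatty acyl groups from lysine.

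The libraries held 10725966 to 20527222 counts in genes, with a median of 14510758. The epithelial genes EPCAM, KRT8, KRT18, KRT19 and CDH1 were expressed in all 24 libraries, whereas the other 5 epithelial markers examined (CDH17, VIL1, LGALS4, CEACAM5 and CDX1) stayed at or below 0.593 CPM (counts scaled to library size) in every library. The 10 epithelial markers summed to 5115 to 10276 CPM untreated and to 8467 to 21571 CPM with OXPT, and the part of this shift in the results below was not tested. Leukocyte markers summed to at most 0.833 CPM. COL1A1 reached 77.6 CPM, but the other fibroblast markers COL1A2, COL3A1, DCN and LUM were at or near 0. HDAC4, the target of the esiRNA, had 19.1 ± 5.45 CPM in KO esiCT and 10.9 ± 3.48 CPM in KO esiHDAC4 without OXPT. With OXPT these were 6.50 ± 0.915 and 3.88 ± 0.481 CPM (mean ± SD, n = 3). In WT it had 22.0 ± 3.44 CPM without and 8.98 ± 0.897 CPM with OXPT, and which esiRNA label holds was not tested. In KO #11 it had 23.5 ± 2.97 and 16.6 ± 2.02 CPM. Under OXPT, KO cells held more HDAC4 mRNA with #11 than with esiCT (log2 fold change 1.36, edgeR adjusted p = 0.0383). FBXW7 counts cover the whole gene and do not check the deletion (16.9 ± 1.34 CPM in KO esiCT UNT against 21.1 ± 3.60 CPM in WT UNT). Library KO esiCT OXPT replicate 3 stood apart with 22.3% unmapped reads and the lowest normalization factor, 0.789.

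Expression per kilobase of exon differed widely among the 9 genes. HDAC1 had the highest level, 83.7 CPM per kb on average over the 24 libraries (64.3 to 100.2), followed by HDAC3 with 19.2 (14.6 to 24.9) and HDAC2 with 10.0 (6.82 to 13.5). The ranges of these 3 class I genes did not overlap. TBL1XR1 (6.81 CPM per kb), HDAC11 (6.19), HDAC6 (4.02) and NCOR1 (2.36) followed, and in this order each overlapped with the gene before it, as TBL1XR1 did with HDAC2. HDAC8, with 0.333 CPM per kb (0.214 to 0.444), lay below the lowest NCOR1 library at 0.552, and it overlapped with HDAC10 at 0.205 (0.0199 to 0.496). Lengths are those of all annotated exons of a gene joined, so genes with long alternative exons score low on this scale. Examples are HDAC8 with 22.888 kb and HDAC2 with 15.333 kb, against 3.966 kb for HDAC1. Of HDAC10's exon bases, 73.6% are shared with other genes, and reads there are left out of its count. Its full exon length was still used, so its place in this order is not settled. On GRCh38, HDAC1 (ENSG00000116478.12) lies at chr1:32292083-32333635 on the plus strand. HDAC3 (ENSG00000171720.10) lies at chr5:141620876-141636849 on the minus strand. HDAC6 (ENSG00000094631.22) lies at chrX:48801377-48824982 on the plus strand. HDAC8 (ENSG00000147099.21) lies at chrX:72329516-72573101 on the minus strand. NCOR1 (ENSG00000141027.23) lies at chr17:16029065-16218185 on the minus strand. TBL1XR1 (ENSG00000177565.19) lies at chr3:177019340-177228000 on the minus strand.

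**Figure D1:**
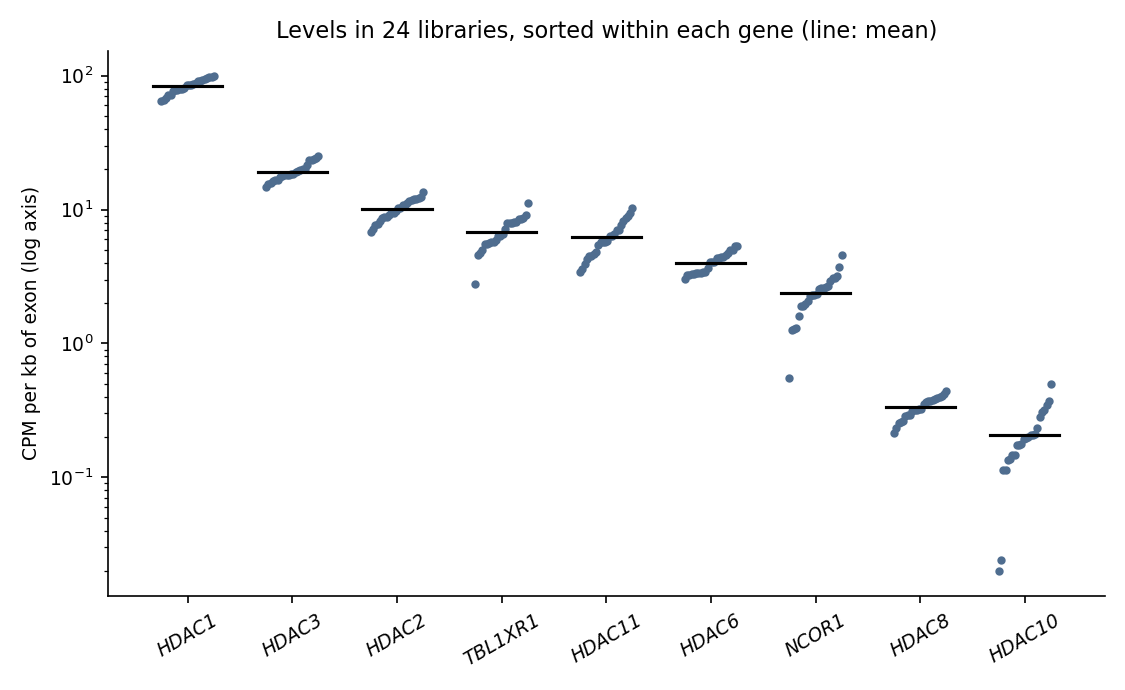
Each point is 1 of the 24 libraries, sorted within a gene from low to high, on a log axis of CPM per kilobase of exon; the lines are means. HDAC1 stood above all other genes in every library. HDAC8 and HDAC10 had the lowest values on this scale, which leaves out HDAC10 reads in shared exon bases.

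The comparison of OXPT with untreated cells asked how the drug alters these genes. HDAC11 rose with OXPT in KO esiHDAC4 and KO #11 cells and in the average over the 4 backgrounds (KO esiCT, KO esiHDAC4, KO #11 and WT), by 1.57-fold in the average (39.5 against 25.2 CPM). In bulk RNA, a change in the share of cells that express a gene and a change in its RNA per cell cannot be told apart. HDAC2 lay lower with OXPT in 11 of 12 same-numbered library pairs, with a change below 1.5-fold. The share of all genes with so many pairs in the same direction was not counted, so counts of pairs are a description here and below. HDAC1, HDAC3, HDAC6, HDAC8, NCOR1 and TBL1XR1 were called neither in any background nor in the average. A call required more than 1.5-fold change and a Benjamini-Hochberg adjusted p under 0.05 by edgeR's quasi-likelihood test. By this rule 0 of 8 members were called in KO esiCT, where 11.3% of all genes were called. In KO esiHDAC4, 1 of 8 members was called against 12% of all genes, and in KO #11 1 of 8 against 9.51%. In WT cells 0 of 8 were called against 10.7%, and in the average 1 of 8 against 23.9%. With 8 members, 1 call is close to the shares of single backgrounds and below that of the average, and is no result about the members as a set. The median log2 fold change of the 8 members in the average was 0.00021 on the log2 scale, beside -0.0024 over all genes. At an unadjusted p under 0.05, 1 member passed in KO esiCT (26.1% of all genes), 2 in KO esiHDAC4 (25.4%), 1 in KO #11 (23.5%), 0 in WT (24.7%) and 2 in the average (51.1%). DESeq2 called 0 members in KO esiCT and in WT and 1, HDAC11, in the other 3 comparisons. Of all 12356 genes it called 1859 in KO esiCT, 1874 in KO esiHDAC4, 1557 in KO #11, 1721 in WT and 3025 in the average. For the comparisons of silencing, #11, genotype and interaction below, its counts over all genes are not given.

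**Figure D2:**
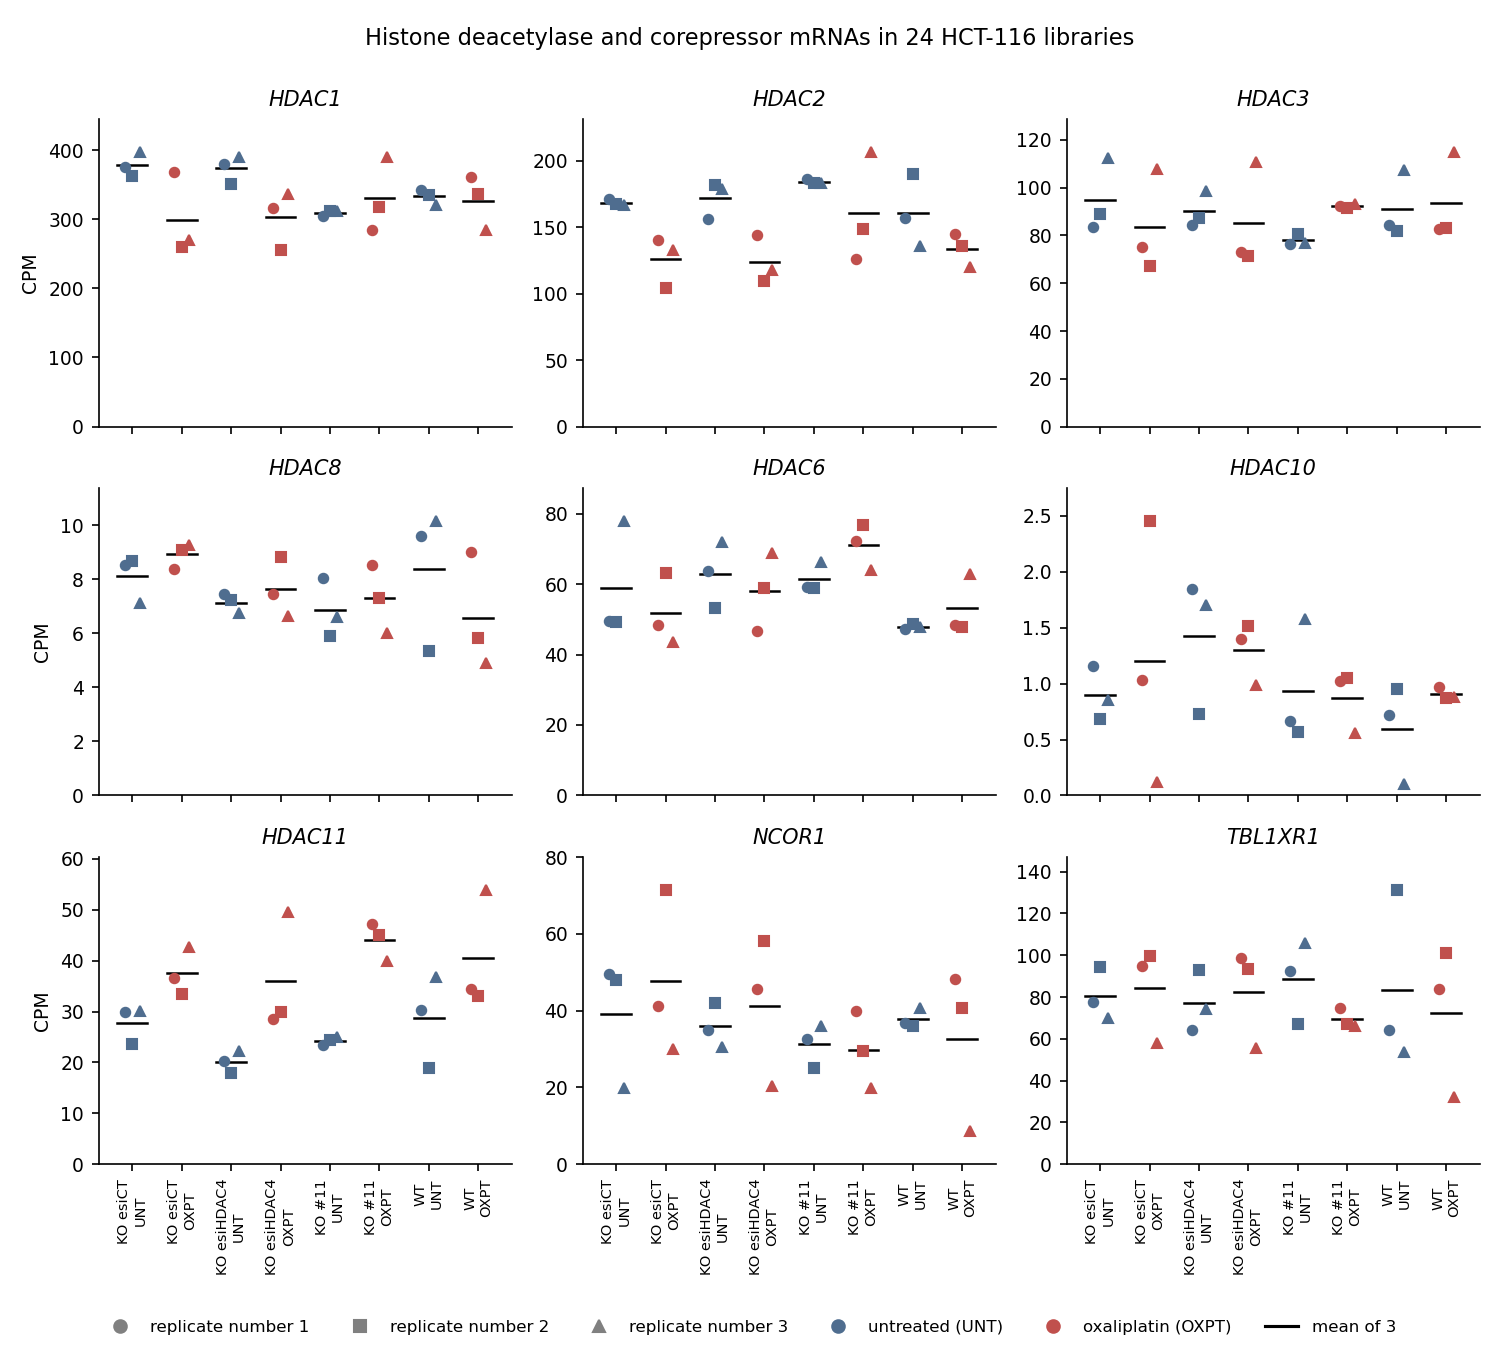
CPM of each of the 9 genes in the 24 libraries; colours show untreated and OXPT libraries, symbols the replicate number, and black lines the mean of 3. The OXPT libraries of HDAC11 lie above the untreated ones in the 3 KO backgrounds, whereas those of HDAC8, NCOR1 and TBL1XR1 overlap with the untreated ones in all 4.

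HDAC11 (ENSG00000163517.15) lies on the plus strand at chr3:13479724-13506424 of GRCh38. HDAC2 (ENSG00000196591.12) lies on the minus strand at chr6:113933028-114011308. The promoter windows of these 2 genes are shown because HDAC11 was the sole member called with OXPT, and HDAC2, which was not called, had an adjusted p under 0.05 in the average of the 4 backgrounds, with the opposite sign. Both are RefSeq windows of 300 bases on GRCh38.p14 around an annotated start, written 5′ to 3′ on the gene's strand. HDAC11 is chr3:13480056-13480355 (plus) and HDAC2 is chr6:113971099-113971398 (minus). Capitals mark matches to the GC box GGGCGG on either strand (CCGCCC on the other strand), and neighbouring matches can share a base.
HDAC11: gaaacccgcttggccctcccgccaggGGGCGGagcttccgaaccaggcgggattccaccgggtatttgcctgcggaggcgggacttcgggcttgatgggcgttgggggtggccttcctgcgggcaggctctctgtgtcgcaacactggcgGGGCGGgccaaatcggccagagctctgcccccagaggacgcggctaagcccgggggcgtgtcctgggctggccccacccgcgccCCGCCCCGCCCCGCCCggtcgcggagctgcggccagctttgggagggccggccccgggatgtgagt
HDAC2: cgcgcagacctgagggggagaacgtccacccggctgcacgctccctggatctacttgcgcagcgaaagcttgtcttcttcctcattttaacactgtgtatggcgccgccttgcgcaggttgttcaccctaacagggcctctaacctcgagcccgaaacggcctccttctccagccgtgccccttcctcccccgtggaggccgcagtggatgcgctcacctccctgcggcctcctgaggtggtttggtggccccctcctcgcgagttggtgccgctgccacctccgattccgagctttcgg
The HDAC11 window held 5 GC boxes and the HDAC2 window 0. Of 35116 windows of the same length, 45% held at least 1 match and 5.14% held 5 or more. The HDAC1 window held 6. The CCAAT box (CCAAT or ATTGG), present in 34.6% of all windows, had 0 matches in both. These matches describe letters in the windows, and no binding was measured.

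HDAC11 was measured with 301 to 744 counts per library. In KO esiCT cells it stood at 29.9, 23.6 and 30.01 CPM untreated and at 36.5, 33.4 and 42.6 CPM with OXPT. In KO esiHDAC4 cells it stood at 20.3, 17.9 and 22.3 CPM untreated and at 28.6, 29.8 and 49.5 CPM with OXPT. In KO #11 cells the untreated libraries were close together at 23.5, 24.4 and 25.04 CPM, and the OXPT libraries held 47.1, 45.01 and 39.9 CPM. In all 3 KO backgrounds each OXPT library was above each untreated one. The share of all genes that separate 3 libraries from 3 was not counted, so separation is a description here and below. In WT cells the groups overlapped, with 30.4, 18.9 and 36.7 CPM untreated and 34.4, 32.96 and 53.96 CPM with OXPT. The lowest of the 12 OXPT libraries held 28.6 CPM and the highest of the 12 untreated ones 36.7 CPM, with medians of 38.2 and 24.0 CPM.

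The fitted log2 fold change of HDAC11 was 0.86 in KO #11 (SE 0.25, 95% interval 0.34 to 1.38, edgeR adjusted p = 0.0331) and 0.83 in KO esiHDAC4 (SE 0.25, 0.31 to 1.36, adjusted p = 0.0331). In KO esiCT it was 0.43 (SE 0.25, -0.09 to 0.95, adjusted p = 0.289) and in WT 0.50 (SE 0.25, -0.02 to 1.02, adjusted p = 0.224), neither called. The average over the 4 backgrounds was 0.65 (SE 0.12, 0.39 to 0.91, adjusted p = 0.000278), which lies close to the 1.5-fold threshold. The backgrounds were not shown to differ: the difference of the response from that in KO esiCT was 0.41 for esiHDAC4 (SE 0.35, adjusted p = 1.00) and 0.43 for #11 (SE 0.35, adjusted p = 0.967), and the response in KO esiCT differed from that in WT by -0.07 (SE 0.35, adjusted p = 1.00). The OXPT comparisons of the 4 backgrounds share no libraries with each other, whereas the average uses them all. These 4 comparisons are not independent repeats, since 1 fit gave the spread for all of them. Under OXPT, deviations of same-numbered libraries from their group means correlated between esiHDAC4 and esiCT (0.71 to 0.77) and between KO and WT (0.53 to 0.65). Between #11 and esiCT these correlations were -0.23 to 0.13.

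Libraries with the same replicate number deviated together in the 4 OXPT comparisons, and HDAC11 was higher with OXPT in 12 of 12 same-numbered pairs, by 0.18 to 1.15 on the log2 scale (median 0.61). With the replicate number as a block its log2 fold change was 0.81 in KO esiHDAC4 (adjusted p = 0.00922), 0.87 in KO #11 (adjusted p = 0.00700) and 0.65 in the average (adjusted p = 3.33e-05). The KO esiHDAC4 call held under 5 of 10 alternatives and in 19 of 24 fits that left out 1 library, and the KO #11 call under 8 of 10 and in 18 of 24. Without KO esiHDAC4 OXPT replicate 3, at 49.5 CPM, the value in that background was 0.53 (adjusted p = 0.247), and without WT OXPT replicate 3 the average was 0.58, below 1.5-fold. Number 3 held the highest HDAC11 value in 7 of 8 groups and had the highest median of unmapped reads, 11.1%. Unmapped reads were 9.73% to 13.4% with OXPT and 8.02% to 8.92% untreated in KO esiHDAC4. In KO #11 they were 8.89% to 10.3% and 8.97% to 10.1%. The part of these differences in the HDAC11 values was not tested. Among the 12356 genes, those with group means most like HDAC11 were ATP13A1 and CYTH4 (both r = 0.99 over 8 group means, which share libraries, and given as a description).

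**Figure D3:**
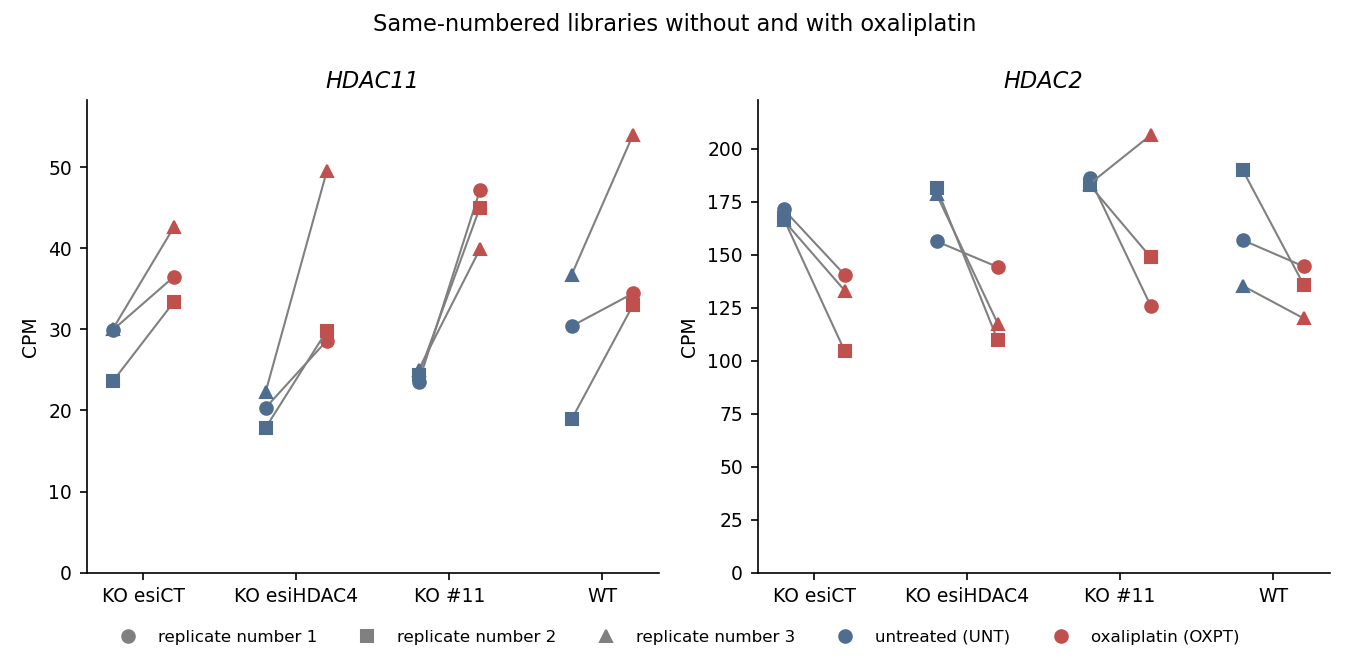
Lines join same-numbered libraries without and with OXPT in each background, in CPM, for HDAC11 and HDAC2. HDAC11 was higher with OXPT in all 12 pairs and HDAC2 was lower in 11 of 12, the exception being number 3 in KO #11.

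HDAC2 held 171, 167 and 166 CPM in KO esiCT untreated and 140.5, 104 and 133 CPM with OXPT. In KO esiHDAC4 it held 156, 182 and 179 CPM untreated and 144, 109.7 and 118 CPM with OXPT. In both backgrounds each OXPT library was below each untreated one. In KO #11 the untreated libraries held 186, 183 and 183 CPM, whereas the OXPT libraries spread over 126, 149 and 206 CPM and overlapped with them. In WT cells the values were 157, 190.1 and 135 CPM untreated and 144, 136 and 119.98 CPM with OXPT, again overlapping. The log2 fold change was -0.42 in KO esiCT (SE 0.18, edgeR adjusted p = 0.146), -0.48 in KO esiHDAC4 (SE 0.18, adjusted p = 0.0938), -0.20 in KO #11 (SE 0.18, adjusted p = 0.549) and -0.27 in WT (SE 0.18, adjusted p = 0.392). The average was -0.34 (SE 0.09, 95% interval -0.53 to -0.15). Its adjusted p of 0.00471 passed, as for 43% of all genes, but the fold change did not reach 1.5.

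HDAC1, the close paralogue of HDAC2, had group means of 299 to 378 CPM. In KO esiCT the untreated libraries ranged from 362 to 397 CPM and the OXPT libraries from 259 to 368 CPM. Its log2 fold change was -0.34 in KO esiCT (SE 0.16, adjusted p = 0.197), -0.30 in KO esiHDAC4 (SE 0.16, adjusted p = 0.257), 0.09 in KO #11 and -0.03 in WT, and -0.14 in the average (SE 0.08, 95% interval -0.31 to 0.03, adjusted p = 0.164). In KO esiHDAC4 each OXPT library was below each untreated one. The sign thus differed between backgrounds, with 8 of 12 same-numbered pairs lower.

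HDAC3, the catalytic subunit of the NCOR complexes, averaged 77.9 to 95.01 CPM in the 8 groups. Its mean log2 fold change with OXPT was 0.0024 (SE 0.10, 95% interval -0.21 to 0.21), with 6 of 12 pairs higher. In KO #11 it held 76.3, 80.5 and 76.98 CPM untreated and 92.2, 91.3 and 93.3 CPM with OXPT, which did not overlap, but its log2 fold change of 0.24 (SE 0.20, edgeR adjusted p = 0.511) was not called. An opposite-strand lncRNA shares 9.24% of HDAC3's exon bases, and the unstranded column held 71.8% of the reads that both strand columns gave HDAC3 together. HDAC8, which acts outside these complexes and deacetylates cohesin, had 67 to 171 counts per library and group means of 6.58 to 8.93 CPM. Its mean log2 fold change was -0.0020 (SE 0.13, -0.27 to 0.27). For both genes the interval of the average lies inside a 1.5-fold change in either direction.

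HDAC6 group means ranged from 47.9 to 71.1 CPM. Its mean log2 fold change with OXPT was 0.01 (SE 0.10, 95% interval -0.20 to 0.22), with 6 of 12 pairs higher. HDAC10 (ENSG00000100429.18, chr22:50245183-50251405, minus strand) had 1 to 36 counts per library, with a highest group mean of 24 against a filter of 64. Its level was 0.591 to 1.43 CPM in the group means. Of its exon bases 73.6% are shared with other annotated genes, 55.8% with MAPK12 on the same strand, and reads that fall in such bases are left out of a gene's count. Without the filter its log2 fold change with OXPT was 0.44 in KO esiCT (adjusted p = 0.799) and -0.15 in KO esiHDAC4 (adjusted p = 1.00). Differences of HDAC10 were not detectable with these counts.

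NCOR1, the scaffold that activates HDAC3, had wide spread within groups. In KO esiCT it held 49.5, 47.95 and 19.8 CPM untreated and 41.3, 71.5 and 29.997 CPM with OXPT. In WT it held 36.8, 36.1 and 40.8 CPM untreated and 48.2, 40.7 and 8.63 CPM with OXPT. The library of replicate number 3 was the lowest of its group in 6 of 8 groups. Its mean log2 fold change with OXPT was 0.05 (SE 0.24, 95% interval -0.45 to 0.55), and within single backgrounds the interval reached from -1.22 to 0.78 in WT and from -0.71 to 1.29 in KO esiCT, which spans more than 1.5-fold in both directions. With number 3 left out of every group the average was 0.29 (adjusted p = 0.0548).

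TBL1XR1, which with TBL1X is known for the exchange of corepressors for coactivators, had group means of 69.3 to 88.4 CPM. Number 3 was the lowest library in 6 of 8 groups, down to 32.3 CPM in WT OXPT. Its mean log2 fold change with OXPT was -0.10 (SE 0.18, 95% interval -0.47 to 0.28), with 6 of 12 pairs higher. Number 3 was the highest library in 7 of 8 groups for HDAC3 and in 7 of 8 for HDAC11. The number 3 libraries had 8.92% to 22.3% unmapped reads (median 11.1%), against medians of 9.29% for number 1 and 9.04% for number 2, and a median of 12752860 counts against 14633042 and 16177292. The part of these differences in the member levels was not tested.

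**Figure D4:**
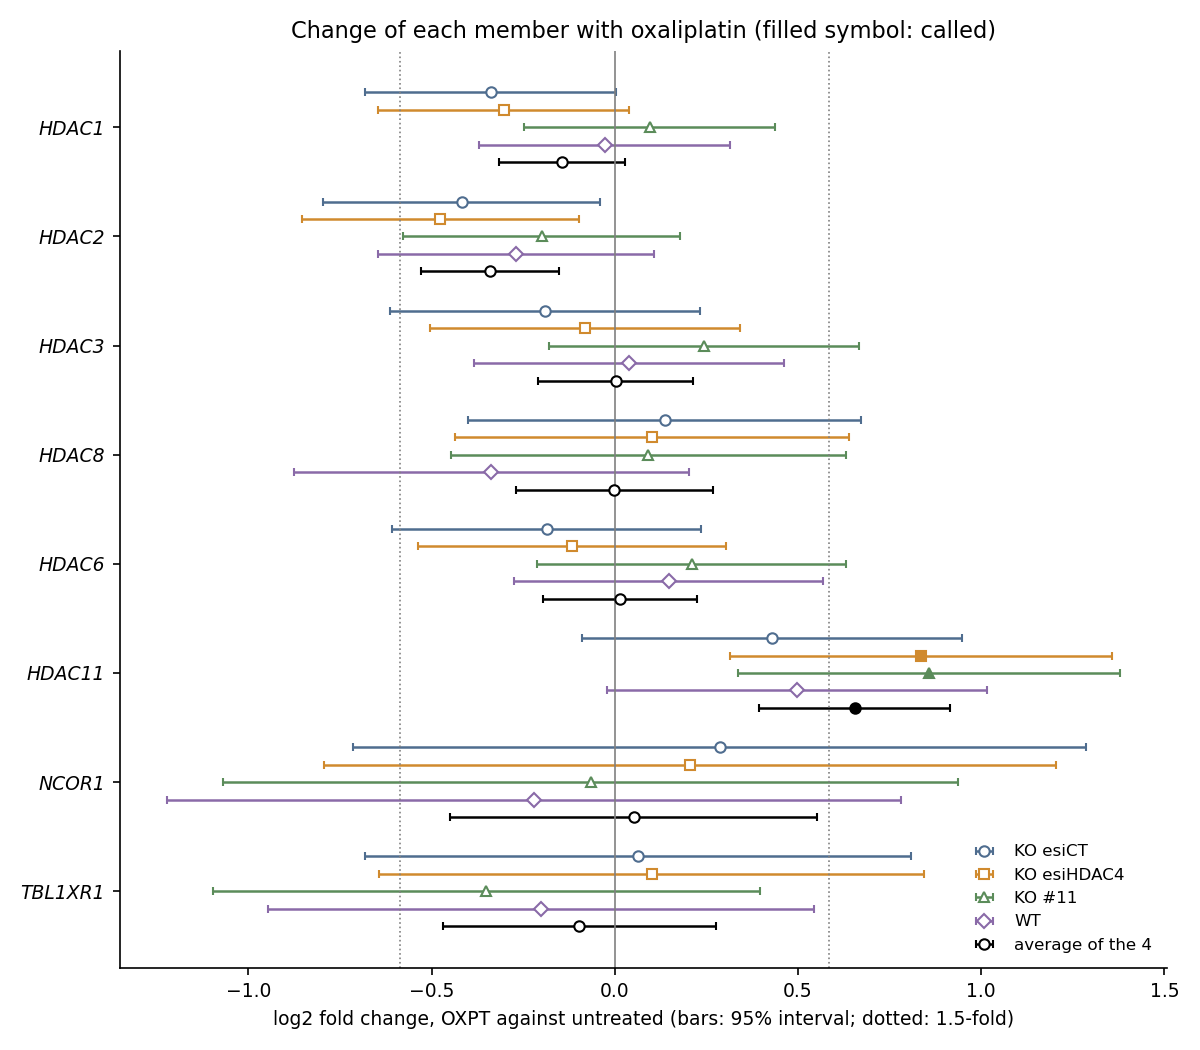
Log2 fold change of the 8 tested members, OXPT against untreated, in each background and in the average of the 4, with 95% intervals; filled symbols were called and dotted lines mark 1.5-fold. HDAC11 alone has filled symbols, in KO esiHDAC4, KO #11 and the average, and NCOR1 has the widest intervals.

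Silencing of HDAC4 was compared in KO cells to ask whether other deacetylases respond to lower HDAC4 mRNA. HDAC4 itself was not called by the same rule. Its log2 fold change was -0.82 untreated (SE 0.24, edgeR unadjusted p = 0.00285, adjusted p = 0.561). Under OXPT it was -0.74 (SE 0.25, edgeR unadjusted p = 0.00784). A lack of calls here thus does not show that the members stayed unchanged. No member passed the test by edgeR, with 0 of 8 called untreated (0.00809% of all genes) and 0 of 8 under OXPT (0% of all genes), 0 of 8 at an unadjusted p under 0.05 (3.19% and 3.08% of all genes), and 0 by DESeq2. The largest value was that of HDAC11 without OXPT, at 20.2 ± 2.22 CPM in esiHDAC4 and 27.8 ± 3.69 CPM in esiCT. All 3 esiHDAC4 libraries were below all 3 esiCT libraries, and the log2 fold change was -0.46 (SE 0.25, 95% interval -0.98 to 0.06, unadjusted p = 0.0771, adjusted p = 1.00 by edgeR). Under OXPT it was -0.06 (SE 0.25). For HDAC3 the values were -0.08 (95% interval -0.50 to 0.34) and 0.03 (-0.39 to 0.45), which lie inside a 1.5-fold change.

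With #11, 0 of 8 members were called untreated, against 0.51% of all genes, and 0 of 8 under OXPT, against 0.121%. DESeq2 also called 0 in both. At an unadjusted p under 0.05, 0 members passed untreated (13.8% of all genes) and 1, HDAC6, passed under OXPT (10.2%). HDAC6 held 72.3, 76.9 and 64.1 CPM with #11 and OXPT against 48.3, 63.1 and 43.7 CPM with esiCT and OXPT. The groups did not overlap, and the log2 fold change was 0.46 (SE 0.20, 95% interval 0.04 to 0.88, edgeR adjusted p = 0.454). NCOR1 had the largest value in this comparison, -0.68, with an SE of 0.48 (adjusted p = 0.668). HDAC1 and HDAC3 libraries treated with #11 alone were all below those with esiCT, with log2 fold changes of -0.29 (SE 0.16, adjusted p = 0.457) and -0.29 (SE 0.20, adjusted p = 0.588). HDAC2 libraries with #11 alone were all above those with esiCT, with a log2 fold change of 0.13 (SE 0.18, adjusted p = 0.819). How many of all genes separated in this way was not counted. Same-numbered #11 and esiCT libraries did not deviate together from their group means (correlations of -0.25 to 0.11 untreated and -0.23 to 0.13 under OXPT). For esiHDAC4 and esiCT these correlations were 0.28 to 0.79 untreated and 0.71 to 0.77 under OXPT. The part of this in the differences between #11 and esiCT was not tested.

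KO and WT cells were compared to see whether the genotype alone moved these genes, with the esiRNA of the WT libraries unsettled. Of the 8 members 0 were called untreated (0.291% of all genes) and 0 under OXPT (0.138%), 0 had an unadjusted p under 0.05 in either state (5.74% and 5.4% of all genes), and DESeq2 called 0. The untreated values lay between -0.05 for TBL1XR1 and 0.30 for HDAC6 (SE 0.20), and the values under OXPT between -0.17 for HDAC3 and 0.55 for NCOR1 (SE 0.48). HDAC11 differed by -0.04 untreated (SE 0.25) and by -0.11 under OXPT (SE 0.25). The response to OXPT was not shown to differ by genotype, esiHDAC4 or #11 for any member: 0 of 8 were called in each of these 3 interaction tests (0% of all genes in each), 0 had an unadjusted p under 0.05 (1.63%, 0.154% and 6.98% of all genes), and DESeq2 called 0.

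The partners of these enzymes were described from 7 lists of 57 genes, of which 55 were tested. With OXPT, in the average of the 4 backgrounds, 7 rose and 7 fell, beside 11.4% of all genes that rose and 12.5% that fell. Of the other NCOR complex subunits, TBL1X fell and CORO2A was not called, while GPS2 was too low to test. TBL1X, the paralogue of TBL1XR1, had 43.8 ± 6.09 CPM in KO esiCT, 47.0 ± 4.64 in KO esiHDAC4, 51.9 ± 0.788 in KO #11 and 53.4 ± 9.47 in WT untreated. With OXPT it had 25.02 ± 4.15, 26.0 ± 2.22, 25.4 ± 3.33 and 27.0 ± 1.89 CPM (mean ± SD, n = 3). It fell in all 4 backgrounds, with log2 fold changes of -0.81, -0.85, -1.03 and -0.98 and a mean of -0.92 (SE 0.09, edgeR adjusted p = 6.81e-08), beside -0.10 (SE 0.18) for TBL1XR1; the difference between both genes was not tested.

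Of 16 SIN3 complex genes, 2 rose and 2 fell. BRMS1L rose by 1.09 and BRMS1 by 0.72 on the log2 scale, whereas RBBP4, a histone-binding subunit shared with NuRD, fell by 0.72 and the scaffold SIN3A by 0.66. Of 9 other NuRD genes, MTA1 fell by 0.72 and MTA2 rose by 0.59, just past 1.5-fold and called under 1 of 9 alternatives. MTA1 fell with OXPT in KO esiCT, KO esiHDAC4 and WT. In KO #11 it held 148 ± 5.38 CPM untreated and 144 ± 13.2 CPM with OXPT, and it was the 1 list gene called for #11 under OXPT (1.11, SE 0.21, edgeR adjusted p = 0.0383). Of 7 CoREST genes the scaffold RCOR1 fell by 0.72, and of 6 genes of the MiDAC and MIER complexes MIDEAS fell by 0.83. Among the 7 sirtuins, the deacylases that use NAD instead of zinc, 3 rose and 0 fell, SIRT4 by 1.39 and SIRT2 by 1.17, with SIRT6 as the other. SIRT2 had 14.3 ± 1.66 CPM in KO esiCT untreated and 38.1 ± 8.13 with OXPT. Of 8 acetyltransferases tested KAT2A rose by 0.68 and KAT6B fell by 0.68. In the comparisons of silencing and of genotype, and in the interaction tests, 0 of the 55 were called by edgeR.

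**Figure D5:**
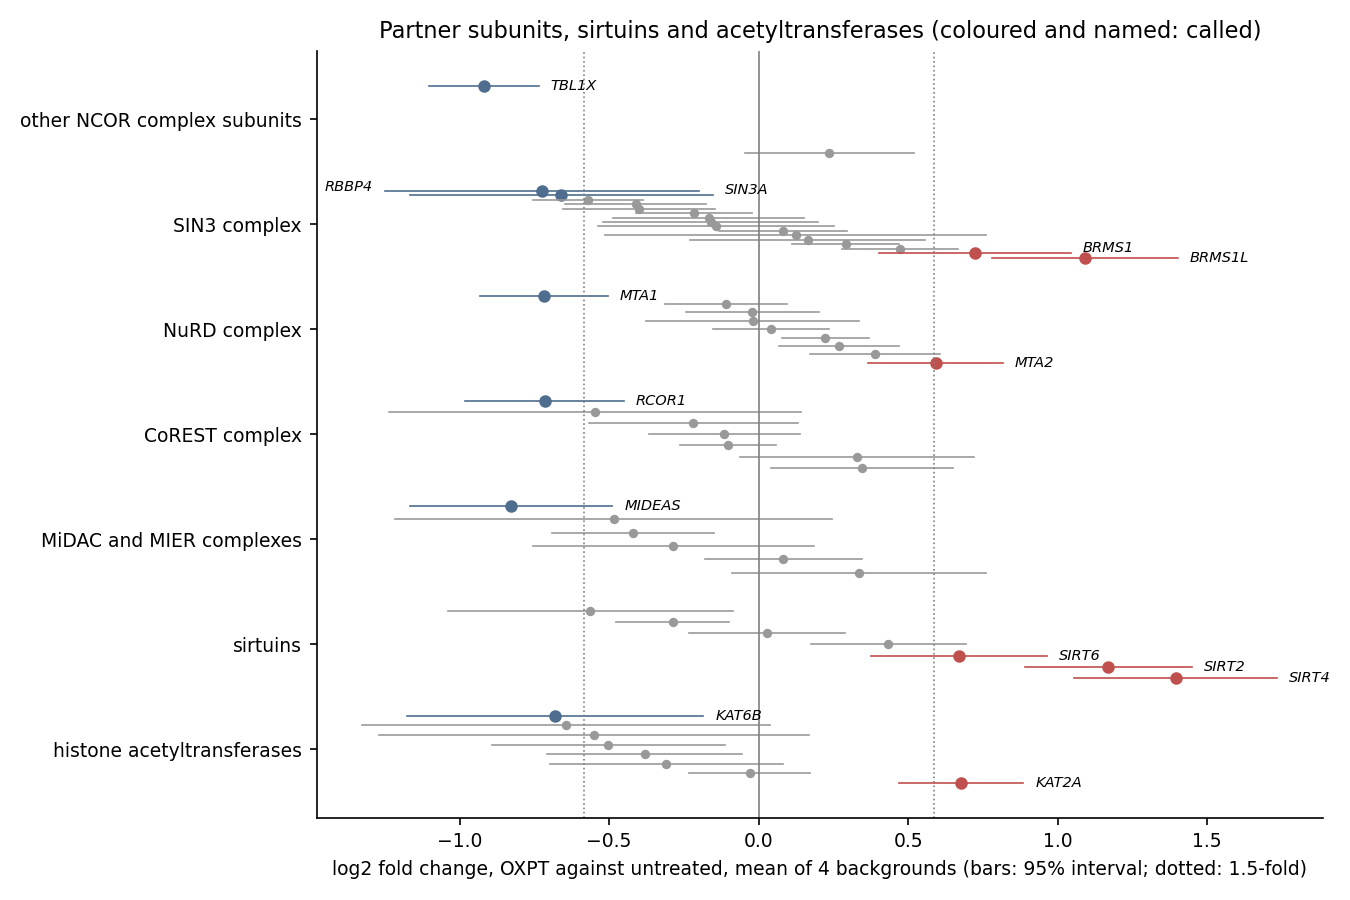
Log2 fold change with OXPT, averaged over the 4 backgrounds, of the 55 tested partner genes by list, with 95% intervals; called genes are coloured and named, and dotted lines mark 1.5-fold. TBL1X stands lowest at -0.92 and SIRT4 highest at 1.39.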

How the data were processed

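RNA was measured in 36 libraries, of which 24 form the 8 groups. The deposited values are raw read counts per gene, made by the authors without normalization, in unstranded, forward-strand and reverse-strand columns. The submitters' processing notes name Trimmomatic 0.39, STAR 2.7.11a and hg38, and the sources used here do not name an annotation for these counts. The 2 strand columns held nearly equal totals (ratio 1.00 to 1.02), so unstranded counts were used. Reads overlapping several genes are not counted there (10.6% to 12.2% per library), and all entries that name no gene (26.0% to 41.2%) were left out.

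Symbols and positions came from GENCODE 44 on GRCh38 (99.8% of identifiers matched), and promoter sequences from RefSeq (all 9 symbols matched). Genes needed a mean count of 64 in at least 1 group. Counts were fitted in R 4.3.3 with edgeR 4.0.16 (TMM, quasi-likelihood F test, 1 coefficient per group, all 24 libraries, Benjamini-Hochberg adjustment over 12356 genes). The fit was also run on simulated data, with the outcome not given here. Those data held no shared deviations of same-numbered libraries, so the simulation does not cover them. Standard errors are approximate (log2 fold change divided by the root of the F value). DESeq2 1.42.0, other strand columns, scalings, filters, a replicate block and left-out libraries were alternatives. The 24 library pairs within groups differed by more than sampling noise (chi-square per degree of freedom at least 10.4). Same-numbered libraries correlated in their deviations from the group means over 0.1 in 8 of 10 comparisons between groups, all but #11 against esiCT without and with OXPT (lowest -0.25), and in the OXPT comparisons at 0.18 to 0.69. The 9 members and the lists, written from general knowledge, were chosen with earlier results of these data known. Named partner genes are at most the 2 highest and 2 lowest called per list in the averaged OXPT comparison, and CORO2A, GPS2 and SIRT6 were added after their values were seen. 1 further list gene is not reported here. Low counts limit HDAC10 and HDAC8 most.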

Additional observations from a re-analysis of the deposited data

Results flagged for a closer look

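The 12 WT libraries left out of every comparison held the highest value of all 36 libraries for 5 members, scaled together: 395.5 CPM for HDAC1, 206 CPM for HDAC2, 125 CPM for HDAC3, 11.0 CPM for HDAC8 and 58.2 CPM for HDAC11. For HDAC1, HDAC2, HDAC8 and HDAC11 this was 1 library each above all 24 compared libraries, and for HDAC3 it was 2 libraries. Others lay below all 24 compared libraries, 2 for HDAC1 (lowest 183 CPM) and 1 each for HDAC2 (103.6 CPM), HDAC8 (4.53 CPM) and TBL1XR1 (25.6 CPM). The share of all genes with their highest or lowest value in these 12 of 36 libraries was not counted. These counts are thus a description and no result about the members. The HDAC1 median was 284 CPM in these 12 libraries and 327 CPM in the 24. The titles of these 12 libraries name PROTAC11 (#11) or siHDAC4, so they are not plain WT cells, and their OXPT state is not settled.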

How the results depend on the processing

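Over all alternatives the log2 fold change of HDAC11 with OXPT stayed positive in each background, and HDAC11 was the sole member called in any of them, apart from HDAC2 without the fold threshold. Its calls were not stable. In KO esiHDAC4 the number of members called fell from 1 to 0 with forward-strand counts (0.69, adjusted p = 0.0904), no count filter (0.80, 0.143), 64 counts in every group (0.77, 0.0545), only the groups compared (0.81, 0.0806) and number 3 left out of every group (0.62, 0.0548). In KO #11 it fell to 0 with reverse-strand counts (0.67, 0.0881) and no count filter (0.86, 0.115). In the average it fell to 0 with reverse-strand counts (0.56) and upper-quartile scaling (0.57), both under 1.5-fold with adjusted p of 0.000793 and 0.000524, and rose to 2, with HDAC2, without the fold threshold.

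Leaving out each library in turn gave 0 to 1 members called in these 3 comparisons and 0 in the other 11. The HDAC11 call was lost in KO esiHDAC4 without OXPT replicate 3 (0.53), without its UNT replicates 1 (0.80), 2 (0.75) and 3 (0.89), and without #11 UNT replicate 2 (0.79). In KO #11 it was lost without its UNT replicates 1 (0.81), 2 (0.85) and 3 (0.85), its OXPT replicates 1 (0.79) and 2 (0.84), and KO esiCT UNT replicate 1 (0.84), at adjusted p up to 0.135. In the average it was lost without KO esiHDAC4 OXPT replicate 3 (0.57) and WT OXPT replicate 3 (0.58). DESeq2 called HDAC11 in all 3. The cause of the lost calls was not tested. The replicate block changed no count of members called (1, 1 and 1 in these comparisons and 0 elsewhere), and HDAC11 then had 0.81, 0.87 and 0.65. The average of HDAC2 lay between -0.41 and -0.34 under the other alternatives and between -0.40 and -0.31 with 1 library left out. All 14 partner genes called in the average kept their sign, and MTA2 stayed called under 1 of 9 alternatives and in 10 of 24 fits that left out a library. SIN3A stayed called in 17 of those 24, RBBP4 was not called with either strand column, and BRMS1, SIN3A and KAT6B were not called with number 3 left out. For #11 against esiCT the numbers did not pair the libraries. Counts over all genes moved by more than 1.5 times in some settings. With only the groups compared they were 553 in KO esiCT (1398 otherwise), 2636 in KO #11 (1175) and 84 in WT (1322), and with number 3 left out 2178, 2250, 2847 and 2614 in KO esiCT, KO esiHDAC4, KO #11 and WT. With 64 counts in every group they were 907, 943 and 836 in KO esiCT, KO esiHDAC4 and WT. In the average they were 5844 with no count filter and 5310 without the fold threshold (2955 otherwise). Leaving out 1 library of the compared groups also moved them past 1.5 times: to 779 and 855 in KO esiCT (UNT replicates 1 and 2), to 807 to 957 in KO esiHDAC4 (1480 otherwise; each library but OXPT replicate 1), to 555 to 638 in KO #11 (UNT and OXPT replicates 1 and 2) and to 829 and 2105 in WT (OXPT and UNT replicate 3).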
